A study of Mus musculus with 6 samples.

Results

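The genes described here encode 8 surface proteins by which mouse blood stem cells and multipotent progenitors are recognised: Cd34, Cd48, Ly6a, Slamf1, Procr, Esam, Myct1 and Cd27. They were chosen by name, as proteins in use as markers, with earlier results of these data known. All 8 were found among the 12161 genes of the deposited table. Expression had been measured by mRNA sequencing in 6 libraries of C57BL/6 bone marrow LSK cells, a fraction sorted as lineage-negative, Sca1-positive and Kit-positive. In 3 libraries the cells carried MIG, a retroviral vector with GFP alone (genotype label wild-type), and in 3 they carried MIG-Hhex, the same vector with the homeobox factor Hhex (genotype label Hhex). Both groups shared every other step in the labels: transduction on retronectin, culture for 2 days in 10 ng/mL each of IL-3 and IL-6 and 50 ng/mL each of stem cell factor (SCF) and FLT3 ligand, and a final sort for GFP. The labels give no age. Each vector has a library of replicates WT3, WT691 and WT703, and replicate WT3 was run on flow cell C3RJFACXX while the others were run on C5LWPANXX. Hhex from the vector was added to what the cells made themselves, so the model is one of raised Hhex in sorted, cultured cells.

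Antibodies against these proteins divide LSK cells into subsets. Ly6a is Sca1 itself, a small lipid-anchored protein and one of the gates of the sort. Slamf1 (CD150) and Cd48 are related receptors of the SLAM family whose combination separates stem cells, which carry CD150 and lack CD48, from most other progenitors. Cd34, a sialomucin, is scarce on the most dormant mouse stem cells and present on progenitors. Procr, the endothelial protein C receptor, and Esam, an adhesion molecule of endothelial junctions, mark stem cells, and Myct1 is a membrane protein of endothelial and stem cells. Cd27 is a receptor of the TNF receptor family found on multipotent progenitors and lymphocytes.

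Values are log2 expression values as deposited, normalised by the authors. Weighted by exon length, the values on the linear scale summed to between 1145970 and 1162420 in every library over 11700 genes with a length, and without that weight to between 407571 and 471911. The table thus lies on a scale close to log2 RPKM, reads per kilobase of exon scaled by library size. Levels are compared between genes on that per-length scale. The sums do not show how the libraries were normalised to each other. The depth of the libraries is unknown. Hhex stood at 5.18, 5.05 and 5.13 in the MIG libraries of replicates WT3, WT691 and WT703 and at 7.61, 9.34 and 9.06 in the MIG-Hhex libraries. Of the markers of other cell types, the summed level of 9 neutrophil genes on the log2 scale lay between 12.3 and 12.5 with MIG and between 12.1 and 12.5 with MIG-Hhex, above the sum of the 4 genes of the LSK phenotype (Kit, Ly6a, Flt3 and Cd34), at 7.48 to 8.28 and 7.25 to 8.14. The cells at harvest therefore expressed granulocyte genes strongly beside the markers they had been sorted on. The neutrophil sums were alike between the vectors but their makeup was not. Mpo had the highest mean of the 9 genes with MIG, at 10.96, and stood at 7.84 with MIG-Hhex. S100a9 went from 9.51 to 10.63. Cells of a type being fewer and cells holding less of an RNA cannot be told apart in such bulk values.

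Of the 8 genes, 0 passed the test between MIG-Hhex and MIG (limma with terms for flow cell and vector, Benjamini-Hochberg adjusted over all genes, threshold 0.05). By comparison 18.0% of all genes passed, 9.44% higher and 8.52% lower. At an unadjusted p under 0.05 there were 3 members, Cd48, Myct1 and Esam, and 4170 genes in all. The estimates ran from 0.52 below MIG for Esam to 0.61 above MIG for Myct1, with a median of −0.24 against −0.02 over all genes (log2 differences). Sizes were not smaller than usual: the median size regardless of sign was 0.32 for the members and 0.17 for all genes. For 6 of the 8, the 95% interval of the difference lay within 1 log2 unit either side of 0, as it did for 81.0% of all genes. Esam and Myct1 were the other 2.

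**Figure D1:**
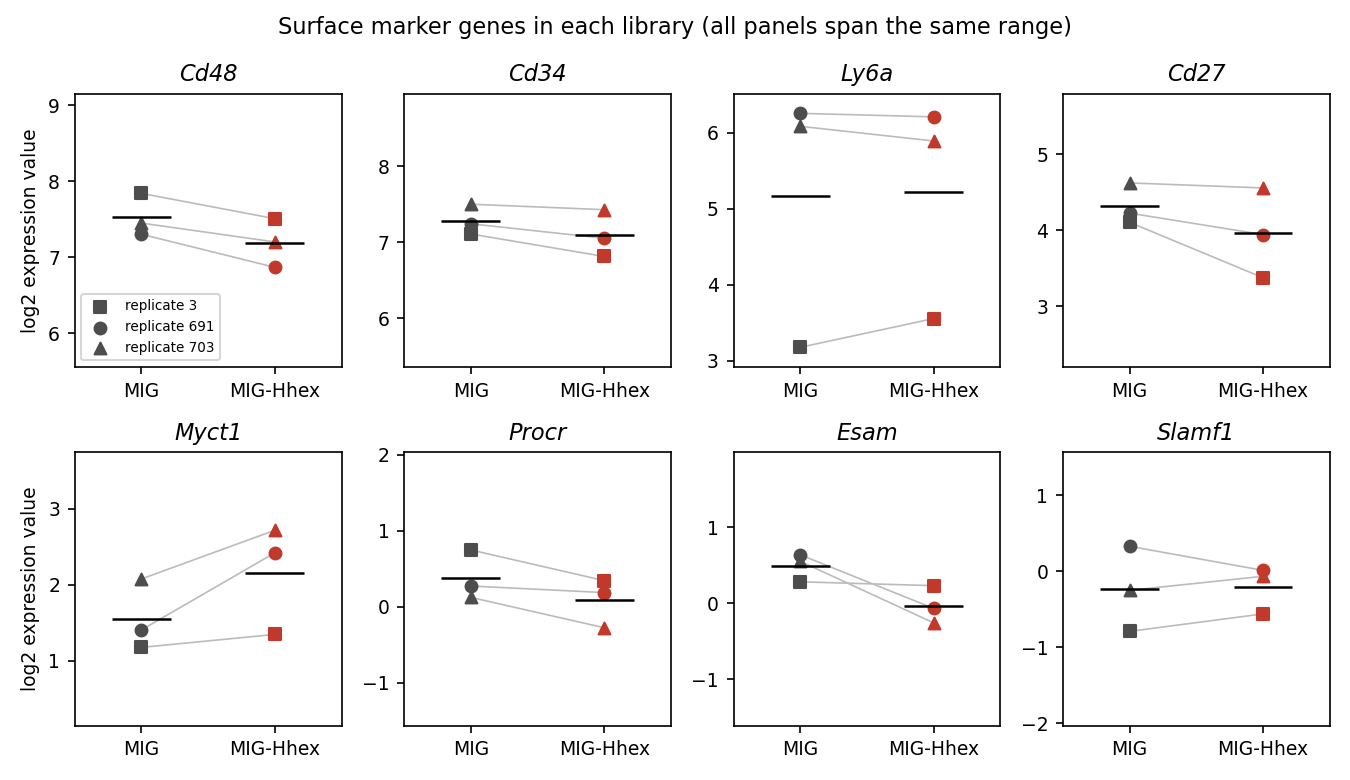
Log2 expression value (vertical axis) of each surface marker gene in the 3 MIG and 3 MIG-Hhex libraries, with symbols for replicates and grey lines joining libraries of the same number; black bars are group means. All panels span the same range, so small differences look nearly flat. Ly6a in replicate WT3 lies at 3.18 and 3.55, far under the other 4 libraries.

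The MIG and MIG-Hhex libraries with the same number deviated together, and each number was also used as a pair. These deviations include the flow cell difference, so they cannot show a pairing of WT691 or WT703 beyond it. Cd34, Cd48, Procr, Esam and Cd27 were lower with MIG-Hhex in all 3 pairs, Myct1 was higher in all 3, and Ly6a and Slamf1 had mixed signs. Among all genes 32.3% were lower in all 3 pairs and 27.5% higher. With the replicate number as a block in the fit, 1 of the 8 members, Cd48, passed the threshold, and 24.5% of all genes did.

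**Figure D2:**
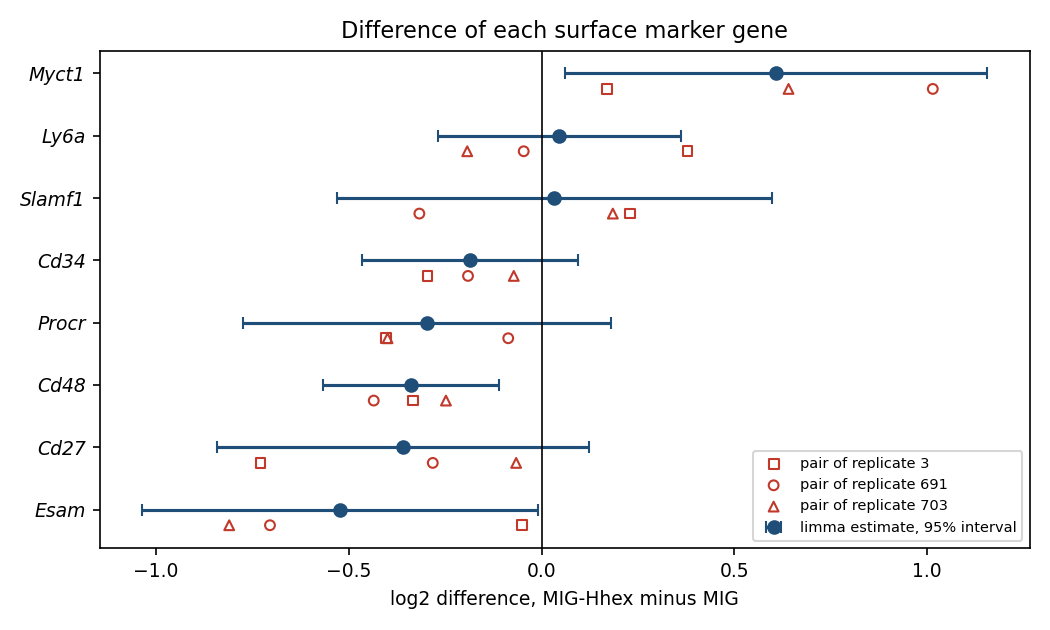
Log2 difference between MIG-Hhex and MIG (horizontal axis) of each surface marker gene, as the limma estimate with its 95% interval (filled circles and bars) and as the difference in each pair of equal replicate number (open symbols). The intervals of Cd48 (−0.57 to −0.11) and Esam (−1.04 to −0.01) lie wholly below 0, and that of Myct1 (0.06 to 1.16) wholly above. Those of Ly6a and Slamf1 are centred near 0.

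Cd48 and Slamf1 are neighbours on chromosome 1, and their promoters were read together with that of Cd84, a further SLAM receptor next to Slamf1. The 250 bases before the transcript start that RefSeq's promoter table uses for each gene are shown. These genes were picked because Cd84 passed the threshold, as described below, while Slamf1 did not (limma adjusted p = 0.937). Cd48 narrowly missed it (limma adjusted p = 0.0543) and passed with the replicate block (0.00896). Myct1 is added as the member with the highest estimate. Capitals mark TGTGGT, the core bound by RUNX factors, and AGATAA, a form of the site of GATA factors. The sequences are from RefSeq on GRCm38.p6, 5′ to 3′ on the plus strand, at chr1:171681742-171681991, chr1:171766882-171767131, chr1:171839447-171839696 and chr10:5593478-5593727 in that order.
Cd48: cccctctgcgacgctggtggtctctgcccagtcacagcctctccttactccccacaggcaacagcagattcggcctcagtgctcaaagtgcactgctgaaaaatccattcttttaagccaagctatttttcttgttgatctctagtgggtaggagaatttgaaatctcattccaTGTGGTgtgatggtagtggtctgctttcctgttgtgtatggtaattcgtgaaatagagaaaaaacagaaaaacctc
Slamf1: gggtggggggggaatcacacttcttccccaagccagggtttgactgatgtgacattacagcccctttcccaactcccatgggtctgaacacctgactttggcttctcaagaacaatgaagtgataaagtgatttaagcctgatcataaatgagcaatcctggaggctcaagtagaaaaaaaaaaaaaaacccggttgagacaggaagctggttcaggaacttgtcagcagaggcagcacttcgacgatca
Cd84: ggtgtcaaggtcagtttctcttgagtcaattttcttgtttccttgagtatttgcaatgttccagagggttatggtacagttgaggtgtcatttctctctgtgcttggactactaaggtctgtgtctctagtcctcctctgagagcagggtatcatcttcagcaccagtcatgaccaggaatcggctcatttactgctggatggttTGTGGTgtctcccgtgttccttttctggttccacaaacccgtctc
Myct1: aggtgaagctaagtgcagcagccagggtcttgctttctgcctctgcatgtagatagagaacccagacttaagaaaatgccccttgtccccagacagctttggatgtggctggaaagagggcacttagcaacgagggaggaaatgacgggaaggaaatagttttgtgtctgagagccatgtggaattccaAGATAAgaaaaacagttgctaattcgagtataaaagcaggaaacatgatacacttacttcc

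RefSeq windows were matched for 6 of the 8 members, the exceptions being Ly6a and Esam. Both strands were searched for ATTAA (the core of the Hhex site), for AGATAA (a form of the site of GATA factors), for CCGGAA (ETS factors), for TGTGGT (RUNX factors) and for the interferon response element. Other forms of these sites, such as TGATAA, were not searched or marked. ATTAA was in 0 of the 6 members' windows and in 24.9% of all 32851 windows of this length. TGTGGT was found once, 76 to 71 bases before the start used for Cd48, and AGATAA once, 61 to 56 bases before that of Myct1, against 14.0% and 9.99% of all windows. CCGGAA and the interferon response element were in 0 of the 6, against 12.0% and 2.98%. In the window of Cd84, TGTGGT lay 45 to 40 bases before the start used. The start used for Cd48, 171681992, lies 747 bases inside the RefSeq span of the gene, which begins at 171681245, so that its window is within that span. The starts used for Cd27, Procr and Slamf1 lie 109, 92 and 1 bases inside theirs, and those of Cd34, Myct1 and Cd84 are the first base of the span. No searched motif was found in the windows of Cd34, Slamf1, Procr and Cd27. These are matches of letters in short windows and not binding sites, and 6 windows are too few to compare with the shares.

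Cd48, a lipid-anchored receptor that binds Cd244, had the highest mean of the 8 genes, at 7.36 over the 6 libraries. It read 7.84, 7.30 and 7.45 in the MIG libraries of replicates WT3, WT691 and WT703 and 7.51, 6.87 and 7.20 in those with MIG-Hhex. Each MIG-Hhex library was lower than its MIG partner, by 0.33, 0.44 and 0.25, but the ranges of the groups overlapped because replicate WT3 was high with either vector. The means were 7.53 ± 0.28 and 7.19 ± 0.32 (SD, n = 3 each). The estimate was −0.34 (SE 0.09), a 1.26-fold lower level, and just missed the threshold (limma adjusted p = 0.0543). With the replicate block it passed (SE 0.05, limma adjusted p = 0.00896). Without replicate WT691 it passed as well, at −0.29 (limma adjusted p = 0.0441), and without the MIG-Hhex library of replicate WT703 at −0.43 (0.0341). It was called in these 2 of the 9 refits in which 1 library or 1 replicate number was dropped.

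Slamf1, the CD150 receptor, was the lowest of the 8, with a mean of −0.22 over the 6 libraries. It read −0.79, 0.33 and −0.25 with MIG and −0.56, 0.01 and −0.07 with MIG-Hhex. The groups overlapped and the signs in the pairs were mixed. The estimate was 0.03 (SE 0.24), with an interval from −0.53 to 0.60 (limma adjusted p = 0.937); it turned to −0.07 without replicate WT3. Within a library Cd48 exceeded Slamf1 by 8.63, 6.97 and 7.70 log2 units with MIG and by 8.07, 6.86 and 7.27 with MIG-Hhex, on the per-length scale. The gap was narrower with MIG-Hhex in each of the 3 pairs, while the ranges of the groups overlapped.

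Among other SLAM family genes of the same stretch of chromosome 1, Cd84 and Ly9 passed the threshold. Of 5 measured SLAM family and adaptor genes other than Cd48 and Slamf1, 0 rose, 2 fell and 3 missed the threshold, the median difference being 0.02. Among all genes 9.44% rose and 8.52% fell. Cd84, a self-binding receptor of leukocytes and platelets whose gene starts 72.6 kb beyond the start of Slamf1, stood at 2.58, 2.66 and 2.68 with MIG and at 1.36, 1.02 and 1.31 with MIG-Hhex. It fell 2.66-fold (log2 −1.41, SE 0.13, limma adjusted p = 0.00193). Ly9 (CD229), a self-binding receptor of lymphocytes and progenitors, stood at 4.09, 4.33 and 4.37 with MIG and at 3.28, 2.57 and 2.75 with MIG-Hhex. It fell 2.64-fold (log2 −1.40, SE 0.18, limma adjusted p = 0.00516), a call that was lost without replicate WT703 (0.0545). In neither gene did the groups overlap. The 95% intervals of Cd84 (−1.72 to −1.10) and Ly9 (−1.83 to −0.97) did not reach those of Cd48 and Slamf1, though the difference between genes was not itself tested. Cd244, the partner that Cd48 binds, lies at the end of the row nearest Ly9 and was 0.47 higher (SE 0.13, limma adjusted p = 0.0568; 0.0237 with the replicate block). It stood at 1.83, 2.75 and 3.13 with MIG and at 2.10, 3.43 and 3.60 with MIG-Hhex.

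**Figure D3:**
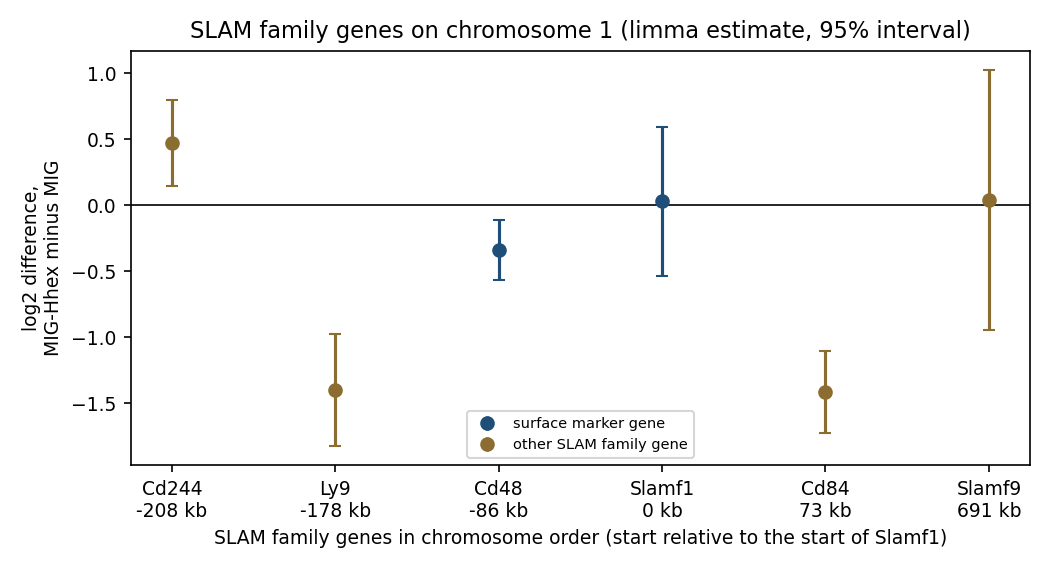
Log2 difference between MIG-Hhex and MIG (vertical axis, limma estimate with 95% interval) of SLAM family genes in their order on chromosome 1, with the distance of each gene's start from that of Slamf1. Ly9 and Cd84, at −1.40 and −1.41, lie on either side of Cd48 and Slamf1, at −0.34 and 0.03.

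In GRCm38.p6 Cd48 (Entrez ID 12506) runs from 171681245 to 171705258 and Slamf1 (27218) from 171767131 to 171801184 on chromosome 1, and Cd34 (12490) lies on the same chromosome from 194938821 to 194961292. The other 5 members lie on 5 more chromosomes: Ly6a (110454) on chromosome 15 from 74994877 to 74998031, Procr (19124) on chromosome 2 from 155751125 to 155755478, Esam (69524) on chromosome 9 from 37528089 to 37538319, Myct1 (68632) on chromosome 10 from 5593728 to 5606789, and Cd27 (21940) on chromosome 6 from 125232620 to 125237136. Each value is for the whole gene.

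Ly6a, the Sca1 gene, differed far more between replicates than between vectors. It read 3.18, 6.25 and 6.08 in the MIG libraries of replicates WT3, WT691 and WT703 and 3.55, 6.21 and 5.89 in the MIG-Hhex libraries. Both libraries of replicate WT3 were low and the 4 others high, with either vector. The means were 5.17 ± 1.73 and 5.22 ± 1.45 (SD, n = 3 each), and the estimate between the vectors was 0.05 (SE 0.13, interval −0.27 to 0.36, limma adjusted p = 0.833). In the libraries of flow cell C5LWPANXX alone the estimate was −0.12 (limma adjusted p = 0.574). On the linear scale Ly6a ranged from 9.03 to 76.3 per-length units. The flow cell term was 2.74, a 6.70-fold higher level on C5LWPANXX, and only 73 genes of the table had a larger one in size. Replicate WT3 and flow cell C3RJFACXX cannot be told apart, so no test of this gap is given. Ly6a has close relatives in the Ly6 cluster. Whether reads were shared among them was not tested, so how far that touches the values of Ly6a is unknown.

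**Figure D4:**
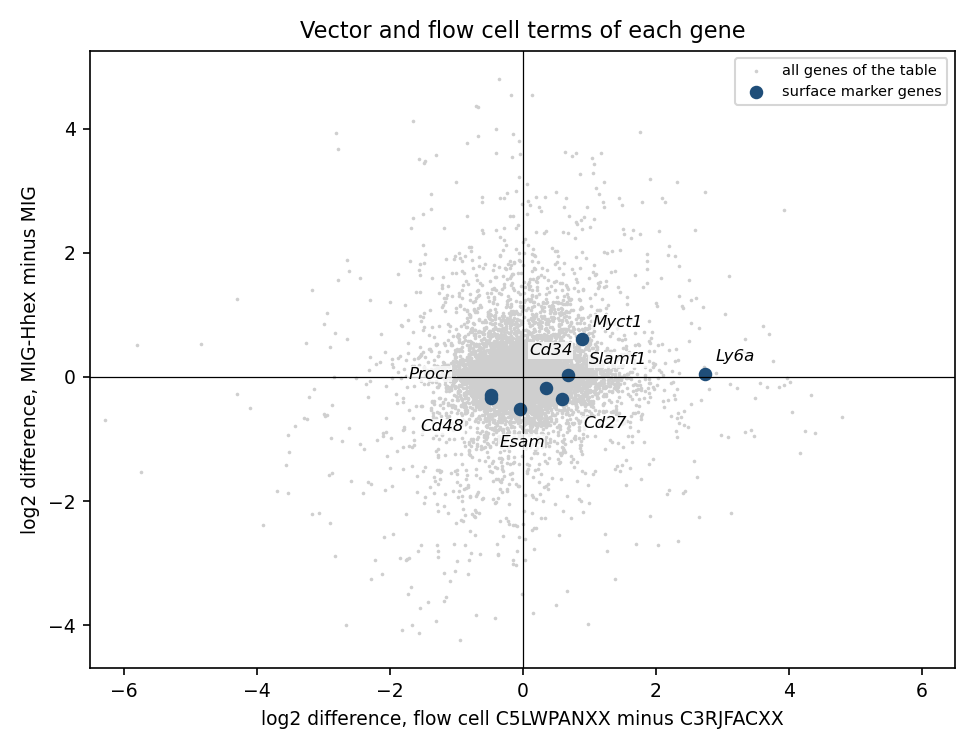
Log2 difference between MIG-Hhex and MIG (vertical axis) against that between flow cells C5LWPANXX and C3RJFACXX (horizontal axis) for all genes of the table (grey) and the 8 surface marker genes (blue, named), both from the same fit. Ly6a stands out to the right, at 2.74 and 0.05, and the others lie inside the grey cloud.

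Other genes were also set apart in replicate WT3. Of the 8 members, Ly6a, Slamf1 and Myct1 had both libraries of replicate WT3 below the other 4, and Cd48 and Procr had both above; 24.0% and 26.6% of all genes were so placed. Flt3, the receptor of multipotent progenitors, was likewise low there, at 2.83 with MIG and 2.60 with MIG-Hhex against 3.79 to 4.99 in the other libraries. Ly6c1 and Ly6c2, Ly6 proteins of endothelial and myeloid cells, went the other way. Ly6c2 stood at 9.15 and 9.38 in replicate WT3 and between 6.97 and 7.91 in the others, and Ly6c1 at 2.57 and 2.39 against at most 1.01. The summed level of 9 monocyte and macrophage genes was 9.71 and 9.77 in replicate WT3 and 8.20 to 9.04 elsewhere. That sum came chiefly from Ly6c2, already given, and its genes did not all go the same way. Fcgr1 stood at 3.37 and 3.47 in replicate WT3 against 1.73 to 2.52 elsewhere. Ccr2 with MIG was lower in replicate WT3, at 5.58 against 6.41 and 6.56. The summed level of 7 erythroid genes was 5.17 and 5.66 in replicate WT3 against 3.64 to 4.87. Of these, Hbb-bs was lower in replicate WT3 within each vector, and the rest were higher. It stood at −0.31 against 0.15 and 1.77 with MIG, and at 0.37 against 0.57 and 0.70 with MIG-Hhex. The part of such cells in the low Ly6a values was not tested.

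Among 8 measured Ly6 and uPAR family genes other than Ly6a, 2 rose, 0 fell and 6 did not pass, while 9.44% of all genes rose and 8.52% fell. Plaur, the urokinase receptor, rose 1.68-fold (log2 0.75, SE 0.13, limma adjusted p = 0.0136) and Lynx1, a modulator of acetylcholine receptors, rose by 1.43 (SE 0.36, adjusted p = 0.0382) from a MIG mean of −2.23, where the offset of the log2 values weighs most; with 1 added on the linear scale it was 0.37. Plaur missed the threshold without replicate WT703 (adjusted p = 0.0628). Lynx1 missed the threshold in each of the 9 refits. Ly6e, an interferon-inducible relative of Ly6a, was 0.26 higher (adjusted p = 0.186), Ly6c1 0.21 higher (0.648) and Ly6c2 0.34 higher (0.241). With the replicate block 4 genes were higher, among them Ly6c2 (limma adjusted p = 0.0114), and 24.5% of all genes passed in either direction.

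Cd34 was the second highest member, with a mean of 7.19. It read 7.11, 7.25 and 7.50 with MIG and 6.82, 7.05 and 7.43 with MIG-Hhex. Every MIG-Hhex library lay a little below its partner, by 0.30, 0.19 and 0.07, and the groups overlapped. The means were 7.29 ± 0.20 and 7.10 ± 0.31 (SD, n = 3 each), and the estimate was −0.19 (SE 0.12, interval −0.47 to 0.09). The interval excludes a fall of more than 0.47 on the log2 scale at the 95% level. It did not pass under any of the 19 alternatives tried (limma adjusted p from 0.0613 to 0.766).

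Of 6 other measured genes among Cd34 relatives and selectin partners, 3 rose, 0 fell and 3 missed the threshold, the median being 0.37. Among all genes 9.44% rose and 8.52% fell. Selp, P-selectin of platelets and endothelium, rose 3.39-fold (log2 1.76, SE 0.26). Selplg, the P-selectin ligand PSGL-1, rose by 0.54 and Spn, the sialomucin CD43, by 0.36. Podxl, podocalyxin, the nearest relative of Cd34, was 0.39 higher and did not pass (limma adjusted p = 0.191). The call of Spn was lost without replicate WT703 (0.0746) and without the MIG library of replicate WT3 (0.05002).

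Cd27 had a mean of 4.14. It read 4.11, 4.23 and 4.62 with MIG and 3.38, 3.95 and 4.56 with MIG-Hhex. The pairs differed by −0.73, −0.28 and −0.07, so that replicate WT3 gave most of the difference. The estimate was −0.36 (SE 0.20, interval −0.84 to 0.12, limma adjusted p = 0.256), and without replicate WT3 it was −0.17. Of 21 other measured TNF receptor family genes and Cd27 partners, 4 rose, 0 fell and 17 missed the threshold, the median being 0.18. Over all genes 9.44% rose and 8.52% fell. Tnfrsf14, the receptor HVEM, rose 2.29-fold (log2 1.19, SE 0.12) and Tnfrsf18, the receptor GITR, rose 1.90-fold (log2 0.92, SE 0.12). Tnfrsf26, a decoy-type receptor, rose by 0.63 and Tnfrsf1b, the second TNF receptor, by 0.33. Tnfrsf1b lost its call in 6 of the 9 refits.

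Procr, Esam and Myct1 are shared between stem cells and endothelium and were low. Procr read 0.75, 0.28 and 0.13 with MIG and 0.35, 0.19 and −0.27 with MIG-Hhex. Each pair was lower with MIG-Hhex and the groups overlapped. The estimate was −0.30 (SE 0.20, interval −0.77 to 0.18, limma adjusted p = 0.334), or −0.16 with 1 added on the linear scale. Of 7 other measured genes around protein C, 1 rose, 2 fell and 4 did not pass, while 9.44% of all genes rose and 8.52% fell. Thbd, thrombomodulin, which presents thrombin to protein C, stood at 0.20, 0.65 and −0.40 with MIG and at −1.15, −1.67 and −3.26 with MIG-Hhex, without overlap. It fell 4.52-fold (log2 −2.18, SE 0.54, limma adjusted p = 0.0382), a size that rests on the offset of the log2 values: with 1 added on the linear scale the difference was −0.73. Tfpi, an inhibitor of the clotting start, fell by 0.38 and F2r, the thrombin receptor PAR1, rose by 0.58. The calls were not firm: Thbd missed the threshold in each of the 9 refits (limma adjusted p from 0.0566 to 0.0912), F2r in 6 and Tfpi in 8.

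Esam read 0.28, 0.64 and 0.55 with MIG and 0.23, −0.07 and −0.26 with MIG-Hhex. It was the one member whose groups did not overlap, lower with MIG-Hhex, with replicate WT3 giving 0.28 and 0.23 at the border. In either direction, the groups did not overlap in 1 of the 8 members and in 21.2% of all genes. The pairs differed by −0.05, −0.70 and −0.81. The estimate was −0.52 (SE 0.21, interval −1.04 to −0.01), 1.44-fold lower, and did not pass (limma adjusted p = 0.142). With 1 added on the linear scale it was −0.28. Without replicate WT3 it was −0.76 (0.0940).

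Myct1 read 1.18, 1.40 and 2.08 with MIG and 1.35, 2.42 and 2.72 with MIG-Hhex. All pairs were higher with MIG-Hhex, by 0.17, 1.01 and 0.64, and the groups overlapped because replicate WT3 was low with either vector. The means were 1.55 ± 0.47 and 2.16 ± 0.72 (SD, n = 3 each). The estimate was 0.61 (SE 0.23, interval 0.06 to 1.16), 1.52-fold higher, and did not pass (limma adjusted p = 0.115), nor with the replicate block (0.0514).

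Of 12 other measured genes of endothelial junctions, 1 rose, 1 fell and 10 missed the threshold, the median being 0.05; this share is near that of all genes, 18.0%. F11r, the junction protein JAM-A, rose 1.88-fold (log2 0.91, SE 0.13, limma adjusted p = 0.00815) and Icam2, an adhesion molecule, fell by 0.27. The call of Icam2 held in 1 of the 9 refits and was lost without the eBayes trend (limma adjusted p = 0.0822) and without the flow cell term (0.800). Jam3, a partner at junctions, was 0.52 lower (limma adjusted p = 0.282), or 0.28 lower with 1 added on the linear scale. Among 5 measured defining markers of endothelium, 0 passed, and their summed level was 6.08 to 6.21 with MIG and 6.13 to 6.21 with MIG-Hhex. That sum came chiefly from Egfl7 and Pecam1, while Kdr lay between −4.40 and −2.29; Cdh5 and Cldn5 were not analysed here.

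Of 32 other surface genes of stem and progenitor cells, 6 rose, 3 fell and 23 missed the threshold, the median being −0.11. Over all genes 9.44% rose and 8.52% fell. The smallest p-values of the list were those of 3 tetraspanins, membrane proteins that organise other receptors. Cd53 stood at 6.77, 6.40 and 6.36 with MIG and at 5.09, 4.24 and 4.29 with MIG-Hhex and fell 3.92-fold (log2 −1.97, SE 0.09, limma adjusted p = 0.000528). Cd82 rose 3.08-fold (log2 1.62, SE 0.10) and Cd9 2.76-fold (log2 1.46, SE 0.11). In none of these did the groups overlap, and their calls held in all 19 alternatives. Itgb3, the integrin beta chain of platelets and progenitors, stood at 2.89, 3.62 and 3.73 with MIG and at 3.34, 4.61 and 4.74 with MIG-Hhex. Its groups overlapped, and it rose 1.76-fold (log2 0.81, SE 0.12, limma adjusted p = 0.00926), a call lost without replicate WT703 (0.0720) and without the flow cell term (0.442). Thy1, a lipid-anchored protein of T cells and progenitors that is named here after its values were seen, stood at 4.67, 4.56 and 3.96 with MIG and at 5.39, 6.77 and 5.97 with MIG-Hhex, without overlap. It rose 3.14-fold (log2 1.65, SE 0.35, limma adjusted p = 0.0232), and its call held in 5 of the 9 refits. Kit, the stem cell factor receptor and the other positive gate of the sort, was 0.17 lower and did not pass, at 4.62, 4.69 and 4.86 with MIG and 4.45, 4.44 and 4.77 with MIG-Hhex. Flt3 was 0.47 lower (SE 0.22, limma adjusted p = 0.182; 0.0241 with the replicate block). With the replicate block, 9 of the 32 were higher and 9 lower, and 24.5% of all genes passed.

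In order of mean level on the per-length scale the members ran Cd48, Cd34, Ly6a, Cd27, Myct1, Procr, Esam and Slamf1. Cd48 and Cd34 did not differ beyond their spread, Cd48 being higher in 3 of the 6 libraries. Cd34 exceeded Ly6a in all 6 libraries, and Ly6a exceeded Cd27 in 5, the exception being the MIG library of replicate WT3. Cd27 exceeded Myct1, and Myct1 exceeded Procr, in all 6. Procr, Esam and Slamf1 were not separable, with Procr above Esam in 3 libraries and Esam above Slamf1 in 4. Linear levels were 117 to 229 for Cd48 and 0.577 to 1.25 for Slamf1.

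The genes whose values over the 6 libraries most resembled each member were found by Pearson's correlation over the whole table. With 6 points that share libraries and flow cells such values are high for many genes, so they are descriptions only. For Cd48 they were Mrpl46 and Hnrnpc (r = 0.999 and 0.997), for Cd34 Lmnb1 and Dclk2 (0.995 and 0.993), and for Ly6a Birc6 and Arfgef1 (0.999 each). For Slamf1 they were Numb and Dhrs9 (0.993 and 0.991), for Procr C2cd2l and Eif4e3 (0.989 and 0.987), and for Esam Slc12a4 and Scyl3 (0.997 and 0.994). Myct1 was nearest to Cd72, a B cell and myeloid receptor, and Rbm3 (0.996 each), and Cd27 to Nutf2-ps1 and Hoxa10 (0.997 and 0.988). Hoxa10, a stem cell homeobox factor, stood at 0.62, 0.76 and 1.03 with MIG and at 0.26, 0.64 and 1.03 with MIG-Hhex.

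Some markers of other blood cells changed between the vectors in these libraries, where 9.44% of all genes rose and 8.52% fell. Of 9 neutrophil genes measured, 6 rose and 1, Mpo, fell (8.70-fold, limma adjusted p = 0.0105). Among the mast cell and basophil markers (5 measured) 1 rose and 3 fell, with a summed level of 7.51 to 8.61 with MIG and 7.13 to 7.90 with MIG-Hhex. Of 9 monocyte and macrophage genes 2 rose and 2 fell, of 7 erythroid genes 3 rose and 0 fell, and of 5 megakaryocyte genes 2 rose and 1 fell. Their part in the values of the surface marker genes was not tested.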

How the data were processed

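The deposited table gives 1 row per Entrez gene and 1 log2 value per library, normalised by the authors before deposit; in 60 rows the symbol is blank. Subread, featureCounts, limma and edgeR with mm10 are named in the submitters' processing notes; neither their versions or order nor the offset of the log2 values is given in the sources used here. The log2 values were compared with limma 3.58.1 (R 4.3.3) across all genes, with terms for flow cell and vector, eBayes with a trend, two-sided p-values and the Benjamini-Hochberg adjustment, on 3 residual degrees of freedom; intervals are at 95%. The fit was tested on simulated data. No filter was applied. Column names were matched to the description labels; 0 sample columns were left unused. Entrez IDs of 12052 genes matched RefSeq GRCm38.p6. Motifs were searched in the 250 bases before each start.

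Deviations from the group means correlated between equal replicate numbers (0.742 for replicate WT3, 0.585 for 691, 0.656 for 703). The flow cell difference is part of these deviations, so they cannot show pairing beyond it. The labels give the numbers in the titles. No source says whether replicates came from separate mice beyond the design text calling them biological, so p-values measure the spread between these libraries. Members and gene lists were chosen with earlier results of these data known, so no list was tested as a set. Genes named beside the members were up to 4 per list with the smallest p past the threshold, a fixed set of partners, and the 2 nearest patterns of each member; 2 list genes are not reported here and are left out of the list counts. Alternatives were other fits, filters on a mean over 0 or 1, another offset, 2 normalisations, flow cell C5LWPANXX alone, and leaving out each replicate number or library.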

Additional observations from a re-analysis of the deposited data

How the results depend on the processing

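With the replicate block, which follows the pairing of libraries by number, 1506 genes were higher and 1473 lower, and 1 member, Cd48 (−0.34), passed; no other member's call changed. Cd48 also passed with robust eBayes (−0.34) and with quantile normalisation (−0.34), so that 1 member was lower there; in refits with 1 library or replicate number dropped its difference ran from −0.43 to −0.24 and the count of lower members from 0 to 1. The number of higher members was 0 in all 19 alternatives. Of 21 genes named beside the members and called, 15 lost the call without the flow cell term and 11 without replicate WT703. Dropping the flow cell term left 119 higher and 98 lower genes, and without the eBayes trend 638 were lower. Within flow cell C5LWPANXX, which is the same as leaving out replicate WT3, 698 were higher and 519 lower, and Ly6a and Slamf1 turned to −0.119 and −0.066. Over the 9 refits, 355 to 835 genes were higher and 270 to 634 lower, the fewest without replicate WT703. In them Ly6a ran from −0.12 to 0.18, Slamf1 from −0.10 to 0.23 and Ly6c1 from −0.18 to 0.46; none of these 3 passed in any refit. Cd34, Procr, Esam, Myct1 and Cd27 kept their direction and did not pass in any alternative that held them; a mean over 1 removed Slamf1, Procr and Esam, and a mean over 0 Slamf1. The depth is unknown, so limits from counting cannot be given, and the offset matters most for Slamf1, Procr and Esam.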
